A study of Mus musculus with 4 samples.

Results

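Acta1, Actc1, Tpm1, Tpm2, Tpm3 and Neb encode the actin, tropomyosin and nebulin of the sarcomeric thin filament, and their tags were followed here in whole limbs of mouse embryos. The 6 genes were chosen by name as a functional group, and every tag that the deposited table assigned to their Ensembl gene was summed, out of 23162 genes or clusters with a count. They held 85 tags with a count, of 134117 assigned tags with a count in all. The study profiled hindlimb and forelimb of CD1 embryos, an outbred mouse stock, at E14.5. Each limb type had 2 libraries, labelled as biological replicates and made from total RNA of dissected limbs. The labels name no mutation, agent or sex, and do not say whether limbs of several embryos were pooled. In the assay, cDNA is cut with NlaIII at CATG, and the 17 bases next to a cut site are sequenced and counted as a tag, ideally from the cut site nearest the poly(A) end.

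Thin filaments are actin polymers with tropomyosin lying along them, and tropomyosin with the troponin complex gates the binding of myosin in a calcium-dependent way. Actc1, cardiac alpha-actin, is the main sarcomeric actin of early embryonic skeletal muscle, and Acta1, skeletal alpha-actin, is the main one in adult skeletal muscle. Nebulin, from Neb, runs along the thin filament of skeletal muscle and stabilises it. Tropomyosin genes are also used outside muscle, with alternative first and last coding exons giving muscle and non-muscle products.

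The tags below carry most of the counts of the 6 genes or showed the clearest limb differences, and the results return to them. Each is printed 5′ to 3′ on the transcript strand as deposited, preceded by its NlaIII site in capitals, and is named by its gene and by the base at which the C of CATG lies, counted from 1 at the A of the start codon.
Acta1 base 978: CATGaagatcaagatcatcgc
Actc1 base 978: CATGaagatcaagattattgc
Acta1 base 918: CATGtaccctggtatcgctga
Actc1 base 918: CATGtaccctggtattgccga
Actc1 base 852: CATGaagtgtgacatcgatat
Acta1 base 829: CATGagaccacctacaacagc
Acta1 base 900: CATGtcagggggcaccaccat
Neb base 21753: CATGtaaaaatttactttcca
Tpm1 base 504: CATGaaagtcattgaaagccg
Tpm1 base 1550: CATGcccgtagccccttccga
Tpm2 base 402: CATGaaggatgaggaaaagat
Tpm3 base 1707: CATGaacatcatctcatcgcc
Tpm3 base 1976: CATGttcaggtggtttcttct
Tpm3 base 1610: CATGccgccccttagtgttgt

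The actin tags lie in coding sequence. On GRCm38, with GENCODE M21 as annotation, the Acta1 tag at base 978 crosses from exon 6 into exon 7 of 7 (chr8:123892145-123892241, minus strand, intron included), and the Actc1 tag at base 978 crosses the same junction of its own 7 exons (chr2:114047602-114048135, minus strand, intron included). These are the last NlaIII sites of both actin transcripts. At this shared site the genes are told apart by C12T and C15T, and at base 918 by C12T and T15C, where the Acta1 base comes first and positions count from 1 at the first base after CATG. The Neb tag lies in the 3′ UTR in exon 157 of 157 (chr2:52136944-52136964, minus strand).

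Among the tropomyosin tags, Tpm1 base 504 is coding, in exon 5 of 10 (chr9:67033970-67033990, minus strand), and Tpm1 base 1550 is in the 3′ UTR in exon 10 (chr9:67022770-67022790, minus strand). Tpm2 base 402 is coding, in exon 4 of 9 (chr4:43519459-43519479, minus strand). The 3 printed Tpm3 tags lie in the 3′ UTR in exon 9 of 9, between chr3:90100362 and chr3:90100748 on the plus strand. All printed Tpm3 tags also match the retrogene Tpm3-rs7, so their counts, and the Tpm3 sums, may include copies of that gene.

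Library totals were 5325279 and 5015295 tags in the hindlimb libraries, against 4695786 and 1829647 in the forelimb libraries. One count was worth 0.222 and 0.252 CPM (library-size scaled counts, after TMM normalization) in hindlimb, against 0.255 and 0.618 CPM in forelimb. Tags of the hindlimb libraries were richer in G and C, at 46.3% and 50.4% of bases, against 40.6% and 40.2% in forelimb. This property moved with limb type, and the main results below are also given with a tag-sequence offset, a correction per tag and library for base composition that was fitted on tags of the same gene. Skeletal muscle markers, 7 of 7 detected, summed to 636.1 and 829.7 CPM in hindlimb, against 1045 and 1269 CPM in forelimb. Heart muscle markers summed to 10.9 and 23.5 CPM in hindlimb, against 28.8 and 26.6 CPM in forelimb, with 5 of 6 detected and Nppa at 0 assigned counts. Smooth muscle markers, 7 of 7 detected, summed to 165.6 and 165.9 CPM in hindlimb, against 181.6 and 192.8 CPM in forelimb. Cartilage markers, 3 of 3 detected, summed to 2090 and 3487 CPM in hindlimb, against 1274 and 963.9 CPM in forelimb, and the 2 epidermis markers to 646.3 and 809.5 CPM in hindlimb, against 475.7 and 422.0 CPM in forelimb. These sums are without the offset. Col2a1 made most of the cartilage sum, with 1853 and 3274 CPM in hindlimb, against 1092 and 772.4 CPM in forelimb. With the offset the median log2 fold change of tested markers was 0.09 in cartilage and -0.34 in epidermis, against 0.35 and 0.74 without it. The same median was -0.77 in skeletal, -0.62 in heart and -0.50 in smooth muscle, against -0.51, -0.34 and 0.11 (all hindlimb over forelimb). The part of these cell types in the results was not tested.

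Hindlimb was compared with forelimb to ask how the limb types differ in expression. Both sarcomeric actins and nebulin were lower in hindlimb, by 1.54 to 1.74 on the log2 scale, while the 3 tropomyosin genes did not pass the test. Of the 6 genes, all of which passed the low-count filter, 3 were called lower and 0 higher by edgeR's quasi-likelihood test (Benjamini-Hochberg adjusted p under 0.05 over 13718 genes). Over all genes tested, 7.08% were called lower in hindlimb, 9.58% higher, and 16.7% either way. With the tag-sequence offset, 1 of the 6 was called, against 0.182% of all genes. Each gene has 2 residual degrees of freedom, and edgeR's fit draws its spread towards that of the other genes tested. The p-values measure only the spread between these libraries, in part that of other genes. In whole limbs, fewer muscle cells and less RNA per cell cannot be told apart.

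Actc1 was the most abundant of the 6 genes in every library. It reached 1358 and 1107 CPM in hindlimb, against 4001 and 3146 CPM in forelimb. Both hindlimb libraries lay below both forelimb libraries. The means were 1233 ± 178 CPM in hindlimb and 3574 ± 605 CPM in forelimb (SD, n = 2 each), a log2 fold change of -1.54 ± 0.32 (SE; edgeR adjusted p = 0.00487). With the offset the log2 fold change was -0.68 ± 0.19 and was not called (edgeR adjusted p = 0.227).

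Acta1 ranked second in every library. Its level was 519.6 and 545.3 CPM in hindlimb, against 1969 and 1354 CPM in forelimb. The hindlimb libraries nearly coincided, and the forelimb libraries differed from each other by more than the hindlimb level itself. The means were 532.4 ± 18.2 CPM in hindlimb and 1662 ± 434 CPM in forelimb (SD, n = 2 each), a log2 fold change of -1.64 ± 0.33 (SE; edgeR adjusted p = 0.00347). Acta1 was the member still called with the offset, at -1.05 ± 0.20 (edgeR adjusted p = 0.0441).

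Neb was the least abundant of the 6 genes. Its level was 45.8 and 35.0 CPM in hindlimb, against 130.1 and 140.9 CPM in forelimb, with no overlap between the limb types. This gave a log2 fold change of -1.74 ± 0.33 (SE; edgeR adjusted p = 0.00294). With the offset it was -0.44 ± 0.26 (edgeR adjusted p = 0.661). Of its 11 tags with a count, 1 tag in the 3′ UTR (base 21753) held 85.7% of the counts, and 17.6% of the bases of that tag are G or C.

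The tropomyosin genes lay between the actins and nebulin. Tpm2, beta-tropomyosin, had 366.8 and 428.8 CPM in hindlimb, against 391.7 and 342.9 CPM in forelimb, and the limb types overlapped (log2 fold change 0.11 ± 0.30, edgeR adjusted p = 0.830). Tpm3, which gives the slow-fibre tropomyosin of skeletal muscle as well as cytoskeletal forms, had 260.3 and 259.7 CPM in hindlimb, against 199.9 and 208.9 CPM in forelimb. The hindlimb values were both above the forelimb values, but the difference was not called (log2 fold change 0.35 ± 0.30, edgeR adjusted p = 0.459). Tpm1, alpha-tropomyosin, had 163.4 and 118.2 CPM in hindlimb, against 256.5 and 182.3 CPM in forelimb. Its hindlimb values were both lower, and this too was not called (log2 fold change -0.64 ± 0.32, edgeR adjusted p = 0.180).

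Summed over the 3 genes, tropomyosin reached 790.5 and 806.7 CPM in hindlimb, against 848.1 and 734.1 CPM in forelimb. The actins Acta1 and Actc1 summed to 1878 and 1652 CPM in hindlimb, against 5970 and 4500 CPM in forelimb. The tropomyosin sums overlapped between limb types, and the actin sums were far apart. Considering separation alone, the hindlimb libraries lay below both forelimb libraries in 4 of the 6 genes and above both in 1. Over all genes tested, 31.4% were separated in the first way and 31.4% in the second.

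**Figure D1:**
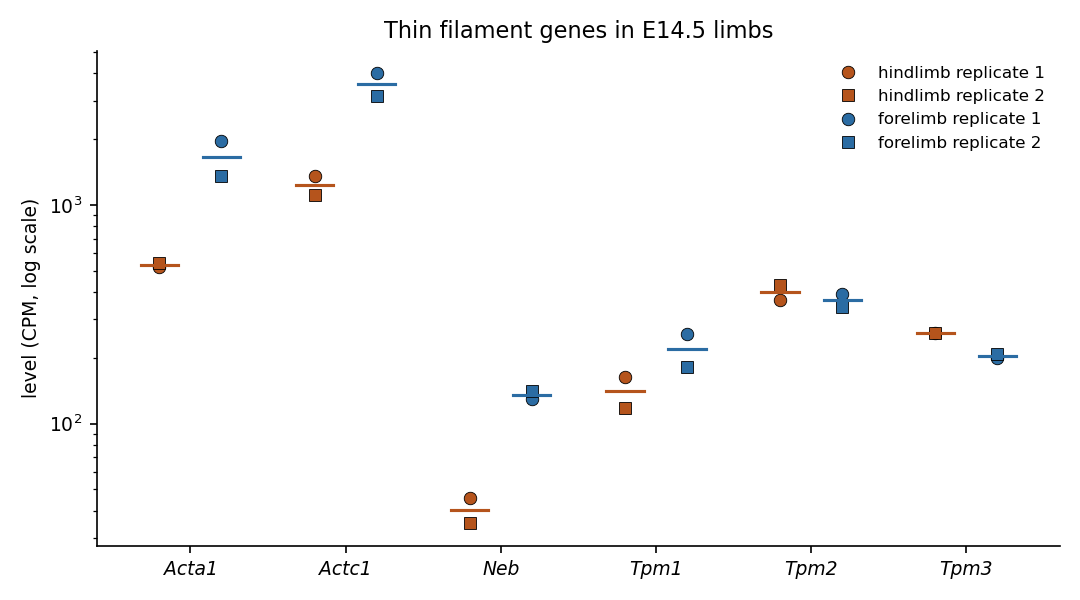
Level of each thin filament gene (CPM, log scale) in the 2 hindlimb libraries (left of each pair) and the 2 forelimb libraries (right), with replicate 1 as a circle, replicate 2 as a square and the mean as a line. Acta1, Actc1 and Neb are lower in hindlimb by 1.64, 1.54 and 1.74 on the log2 scale, and the limb types overlap in Tpm2.

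The order of the genes was nearly one order in both limb types. A tag count does not scale with transcript length, since a molecule ideally gives 1 tag, so CPM were compared between genes without a length correction. Levels still depend on the tags of each gene, as 85.7% of Neb counts lay in 1 tag and Tpm3 sums may include Tpm3-rs7. The order is therefore one of tag counts, without the offset. In hindlimb the order was Actc1, Acta1, Tpm2, Tpm3, Tpm1 and Neb, and no neighbours overlapped. In forelimb it was Actc1, Acta1, Tpm2, Tpm1, Tpm3 and Neb, and only Tpm1 and Tpm3 overlapped.

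With all tags counted, the actin isoform ratio did not separate hindlimb from forelimb. Acta1 made up 27.7% (95% Wilson interval 26.7% to 28.6%) and 33.0% (31.9% to 34.2%) of the counts of both sarcomeric actins in hindlimb, against 33.0% (32.4% to 33.6%) and 30.1% (29.1% to 31.2%) in forelimb. The libraries of one limb type differed from each other by more than counting error, and the limb types overlapped. The mean share was 30.3 ± 3.8% in hindlimb and 31.5 ± 2.0% in forelimb (SD, n = 2 each), a difference of -1.20 percentage points (two-sided exact permutation p = 1; 0.333 is the smallest p that 2 against 2 libraries can give). Actc1 counts therefore outnumbered Acta1 counts 2.61-fold and 2.03-fold in hindlimb, against 2.03-fold and 2.32-fold in forelimb. The intervals cover counting error only, since the tags carry no molecular identifiers.

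The share depended on which tags were read. At base 978, the last NlaIII site of both transcripts, Acta1 took 32.4% and 43.2% in hindlimb, against 35.0% and 35.0% in forelimb. At base 918, Acta1 took 15.2% and 17% in hindlimb, against 22.8% and 21.7% in forelimb. At base 852 it took 7.05% and 5.13% in hindlimb, against 4.89% and 5.95% in forelimb. Actc1 therefore led at these 3 sites, whereas at base 829 Acta1 took 71.4% and 100% in hindlimb, against 74.5% and 77.4% in forelimb. The limb types overlapped at bases 978, 852 and 829 but not at base 918, where both tags hold 52.9% G or C.

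Pooled over the 6 sites that both transcripts share, counted in every library, Acta1 took 24% and 28.9% in hindlimb, against 31.2% and 27.6% in forelimb. The difference of means was -2.90 percentage points (two-sided exact permutation p = 0.667). Reading from the last site alone turned the difference positive, to 2.74 percentage points, and there hindlimb replicate 2 stood above the other 3 libraries. With the counts divided by the offset, the Acta1 share was 27.7% and 30.6% in hindlimb, against 35.6% and 32.3% in forelimb. In that reading the limb types no longer overlapped, with a difference of -4.80 percentage points (two-sided exact permutation p = 0.333).

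**Figure D2:**
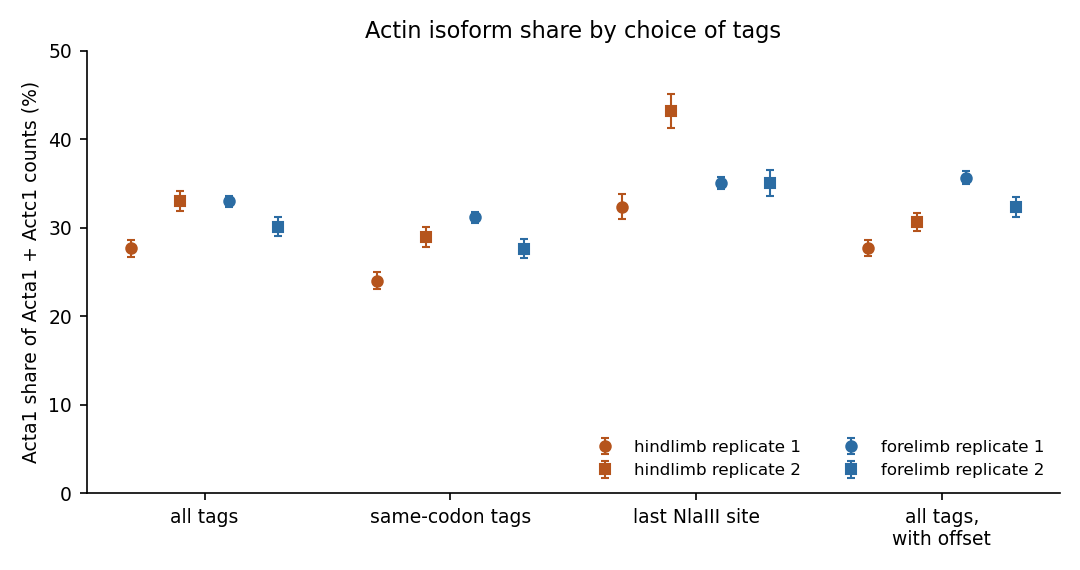
Acta1 share of Acta1 plus Actc1 counts (percent) in each library, for all tags, for tags at sites that both actins share, for the last NlaIII site, and for all tags with the offset. Points are libraries, hindlimb on the left of each set, and bars are 95% Wilson intervals. With all tags the share runs from 27.7% to 33.0% over the 4 libraries.

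Within a gene, tags differed between limbs in opposite directions. Of 46 member tags that passed the filter, 5 were called higher and 6 lower in hindlimb by edgeR over 37805 tags, where 4.59% of all tags were called higher, 1.64% lower and 6.24% either way. The 6 tags called lower held 52.9% G or C or less, and the 5 called higher held at least 58.8%. With the offset 0 of the 46 were called, against 0.0265% of all tags (0.0185% higher and 0.00794% lower). The offset was fitted on tags of the same gene, these included, so a narrower spread within genes follows in part from how it was made.

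In Acta1, base 978 had 289.2 and 278.6 CPM in hindlimb, against 1510 and 880.5 CPM in forelimb, a log2 fold change of -2.08 ± 0.42 (SE; edgeR adjusted p = 0.0292). Base 829 was also called lower, with 8.89 and 7.56 CPM in hindlimb, against 54.3 and 50.7 CPM in forelimb (log2 fold change -2.67). Base 900, which lies between them, was called higher, with 21.8 and 18.2 CPM in hindlimb, against 1.78 and 1.85 CPM in forelimb (log2 fold change 3.43). That tag held 1.25% of the gene's counts and runs into the next NlaIII site, at base 918. The other 7 Acta1 tags tested were not called, and 9 of the 10 had a log2 fold change below 0, with or without the offset.

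In Actc1, base 978 was called lower, with 603.8 and 366.6 CPM in hindlimb, against 2799 and 1633 CPM in forelimb (log2 fold change -2.20 ± 0.45, edgeR adjusted p = 0.0305). Base 852 was called lower as well, with 167.2 and 130.6 CPM in hindlimb, against 539.9 and 693.3 CPM in forelimb (log2 fold change -2.05). Base 918, the second most abundant Actc1 tag, had 456.9 and 497.4 CPM in hindlimb, against 485.9 and 551.8 CPM in forelimb. The limb types overlapped there, and the log2 fold change was -0.13 ± 0.37 (edgeR adjusted p = 0.861). The Actc1 difference between limbs therefore rested on some sites of the transcript and was not seen at another. The tag at base 918 holds 52.9% G or C, against 29.4% at base 978 and 35.3% at base 852. With the offset the log2 fold change was -0.66 at base 918, -0.70 at base 978 and -0.97 at base 852.

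The Acta1 tag at base 918 is also 52.9% G or C, and it had 81.6 and 101.8 CPM in hindlimb, against 143.4 and 153.2 CPM in forelimb. Its log2 fold change was -0.70 ± 0.39 (edgeR adjusted p = 0.270). A further Acta1 tag at base 942 had 84.7 and 96.3 CPM in hindlimb, against 183.4 and 190.9 CPM in forelimb, with a log2 fold change of -1.05 ± 0.39 (edgeR adjusted p = 0.114). Both stood without overlap between limbs, and neither was called. With the offset their log2 fold changes were -1.28 and -1.78.

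In Neb, base 21753 was called lower, with 38.7 and 35.0 CPM in hindlimb, against 111.3 and 110.6 CPM in forelimb (log2 fold change -1.59, edgeR adjusted p = 0.0495). With the offset its log2 fold change was 0.01. The neighbouring tag at base 21732 had 5.11 and 0 CPM in hindlimb, against 16.8 and 17.3 CPM in forelimb. It held 10.8% of the gene's counts and was not called (edgeR adjusted p = 0.133).

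In Tpm2, base 402, a coding tag common to muscle and non-muscle products, was called lower, with 96.0 and 73.1 CPM in hindlimb, against 261.5 and 250.3 CPM in forelimb (log2 fold change -1.60, edgeR adjusted p = 0.0468). This tag held 39.6% of the Tpm2 counts, and with the offset its log2 fold change was -0.60. Of the 9 Tpm2 tags tested, 1 was called lower and 1 higher, and 6 had a log2 fold change above 0. Another tag, at the start codon, held 15.0% of the counts, had a log2 fold change of 0.16 and also matches Tpm1.

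In Tpm3, base 1610 was called higher, with 51.4 and 49.9 CPM in hindlimb, against 1.53 and 6.18 CPM in forelimb (log2 fold change 3.89 ± 0.67, edgeR adjusted p = 0.0213). A tag at the start codon was also called higher, with 8.89 and 19.7 CPM in hindlimb, against 2.04 and 0.618 CPM in forelimb. The more abundant base 1707 had 80.7 and 79.2 CPM in hindlimb, against 123.8 and 155.1 CPM in forelimb, and base 1976, the last site, had 92.3 and 98.8 CPM in hindlimb, against 53.0 and 25.3 CPM in forelimb. Neither of these was called, and their log2 fold changes were -0.80 and 1.26. With the offset the log2 fold change was 1.20 at base 1610, 0.05 at base 1707 and 0.57 at base 1976, so the opposite sign at base 1707 was not seen there.

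In Tpm1, base 504 carried 69.0% of the counts, with 86.0 and 73.4 CPM in hindlimb, against 218.5 and 119.9 CPM in forelimb (log2 fold change -1.10, edgeR adjusted p = 0.139). Base 1550, in the 3′ UTR of the non-muscle end, was called higher, with 22.2 and 18.4 CPM in hindlimb, against 2.04 and 3.71 CPM in forelimb (log2 fold change 2.89, edgeR adjusted p = 0.0355). A tag at base 1235 of the same 3′ UTR had 18.7 and 7.06 CPM in hindlimb, against 8.66 and 14.8 CPM in forelimb, and overlapped. With the offset the log2 fold changes of these 3 tags lay between -0.43 and 0.10.

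Tags with more G and C had higher log2 fold changes on balance. Of 23 tags with 8 or fewer G or C, 17 had a log2 fold change below 0, with a median of -1.10. The 16 tags with 9 or 10 G or C had a median of -0.08, and 9 of them were below 0. Of the 7 tags with 11 or more, 4 were above 0 and 3 below, from -1.05 to 3.43, with a median of 2.89. Over the 46 tags, which share the 4 libraries and in part the gene, Pearson's r between log2 fold change and percent G and C was 0.56, and 0.10 with the offset. The offset was fitted on the G and C content of tags, these included, so a lower r follows in part from how it was made. The standard deviation of log2 fold changes among tags of one gene ran from 1.45 in Actc1 to 1.87 in Tpm3 without the offset, and from 0.53 in Actc1 to 0.91 in Tpm2 with it.

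**Figure D3:**
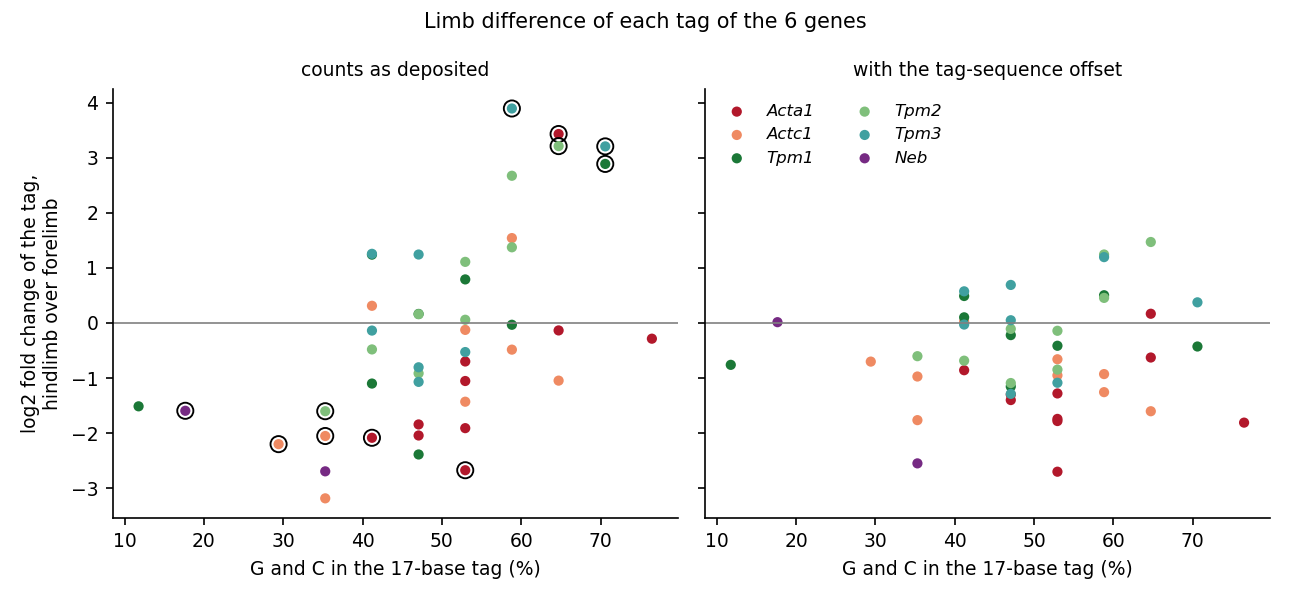
Log2 fold change, hindlimb over forelimb, of the 46 tested tags of the 6 genes against the percent of G and C in the tag, for the counts as deposited (left) and with the offset (right). Colours mark genes, and rings mark the 11 called tags on the left; none was called on the right. On the left the 7 tags richest in G and C have a median of 2.89, with 3 of them below 0.

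A test of tag usage asked whether the tags of a gene differed in their limb effect (diffSpliceDGE in edgeR, Simes p per gene, adjusted over 8694 genes). It called 5 of the 6 genes, where 10.4% of all genes were called. The adjusted p was 2.47e-04 for Acta1, 7.24e-04 for Tpm2, 0.00327 for Tpm3, 0.0111 for Actc1 and 0.0274 for Tpm1, and Neb was not called (adjusted p = 0.768). With the offset 0 of the 6 were called, where 0.219% of all genes were. The offset was fitted to even out tags within a gene, and unevenness of that kind is what this test looks for. Fewer calls therefore follow in part from how the offset was made. The count with the offset cannot decide whether tag usage differed between limbs. Without hindlimb replicate 1 the test called 6 of the 6 and 22.5% of all genes, and without hindlimb replicate 2 it called 4 of the 6 and 1.52% of all genes. Without forelimb replicate 1 it called 0 of the 6 and 0.126% of all genes, and without forelimb replicate 2 it called 0 of the 6 and 0.244% of all genes.

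The share of an actin's counts at its last site was lower in hindlimb. For Actc1 it was 44.5% and 33.1% in hindlimb, against 69.9% and 51.9% in forelimb, and for Acta1 55.7% and 51.1% in hindlimb, against 76.7% and 65.0% in forelimb. Tpm2 went the other way, with 64.2% and 78.2% of its counts at the last site of some annotated transcript in hindlimb, against 24.6% and 20.4% in forelimb. Tpm3 had 38.9% and 45.6% in hindlimb, against 27.5% and 12.4% in forelimb. These 4 genes did not overlap between limb types (two-sided exact permutation p = 0.333, the smallest possible), while Tpm1 (66.3% and 77.6% in hindlimb, against 86.0% and 67.8% in forelimb) and Neb (84.5% and 100% in hindlimb, against 85.5% and 78.5% in forelimb) did. Of 11184 genes with a count in every library and counts both at and before a last site, 22.3% were lower in both hindlimb libraries without overlap and 29% were higher. Over all genes the share was 61.4% and 66.2% in hindlimb, against 62.6% and 57.3% in forelimb, and overlapped.

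Reading transcripts from the last site alone changed the tropomyosin result. Tpm2 was then called higher in hindlimb, with a log2 fold change of 1.65 (edgeR adjusted p = 0.00683), and Tpm3 with 1.30 (edgeR adjusted p = 0.0323). Reading each gene from its most abundant tag gave -1.68 for Tpm2, called lower (edgeR adjusted p = 0.0102), and -0.89 for Tpm3, not called (edgeR adjusted p = 0.128). The signs of the Tpm2 and Tpm3 differences thus differed with the tags counted. Acta1, Actc1 and Neb were below 0 and called in both readings.

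Tropomyosin tags were next sorted by the transcripts they can come from. The annotation holds 4 Tpm1 transcripts with a muscle-type last coding exon and 7 with a non-muscle-type one, 2 and 1 for Tpm2, and 2 and 2 for Tpm3. These names follow the end of the encoded protein alone. Which cells used each end, smooth muscle among them, was not tested. For Tpm2, tags found only on muscle-type transcripts held 52.2% and 59.1% of the gene's counts in hindlimb, against 13.6% and 8.83% in forelimb. The means were 55.6 ± 4.9% in hindlimb and 11.2 ± 3.4% in forelimb (SD, n = 2 each), a difference of 44.4 percentage points (two-sided exact permutation p = 0.333, the smallest possible). Assigned tags found only on the non-muscle Tpm2 transcript had 0 counts, which allows a share of up to 0.182% and 0.176% in hindlimb, and of up to 0.195% and 0.541% in forelimb. The remaining Tpm2 counts lay mostly in tags common to both ends, so the share does not give the ratio of the products. With the counts divided by the offset, the muscle-only share was 43.6% and 35.6% in hindlimb, against 23.6% and 14.1% in forelimb, a difference of 20.8 percentage points (two-sided exact permutation p = 0.333). Tpm2 tags at the last site of a transcript of known end held only 129 and 169 counts in hindlimb, against 51 and 9 in forelimb. Among these the muscle-type share was 45.74% and 46.75% in hindlimb, against 29.41% and 11.11% in forelimb. The difference of means was 26.0 percentage points, and forelimb replicate 2 rested on 1 of 9 counts. The remaining counts of this share came from a tag at base 597 that also lies inside muscle-type transcripts. This share too does not give the ratio of the products.

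For Tpm1, tags found only on non-muscle transcripts held 37.6% and 25.8% in hindlimb, against 11% and 29.2% in forelimb, and the limb types overlapped. No tag that the table assigned to Tpm1 and that held a count was found on muscle-type transcripts alone, but 4 tags left without a gene were, with 40 and 45 counts in hindlimb, against 12 and 5 in forelimb. The class is therefore missing from the assigned counts and not from the libraries. Among Tpm1 tags at the last site of a transcript of known end, those of muscle-type transcripts, all at base 504, held 79.5% and 79.9% in hindlimb, against 99.1% and 97.0% in forelimb. The limb types did not overlap in this share (two-sided exact permutation p = 0.333, the smallest possible), although base 504 also occurs upstream in non-muscle transcripts. The tag at base 504 holds 41.2% G or C, against 70.6% at base 1550. In Tpm3, nearly all assigned counts lay in tags common to both ends, and neither end had an assigned count of its own. One tag without a gene, found on muscle-type Tpm3 transcripts alone, had 2 and 7 counts in hindlimb, against 5 and 2 in forelimb.

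**Figure D4:**
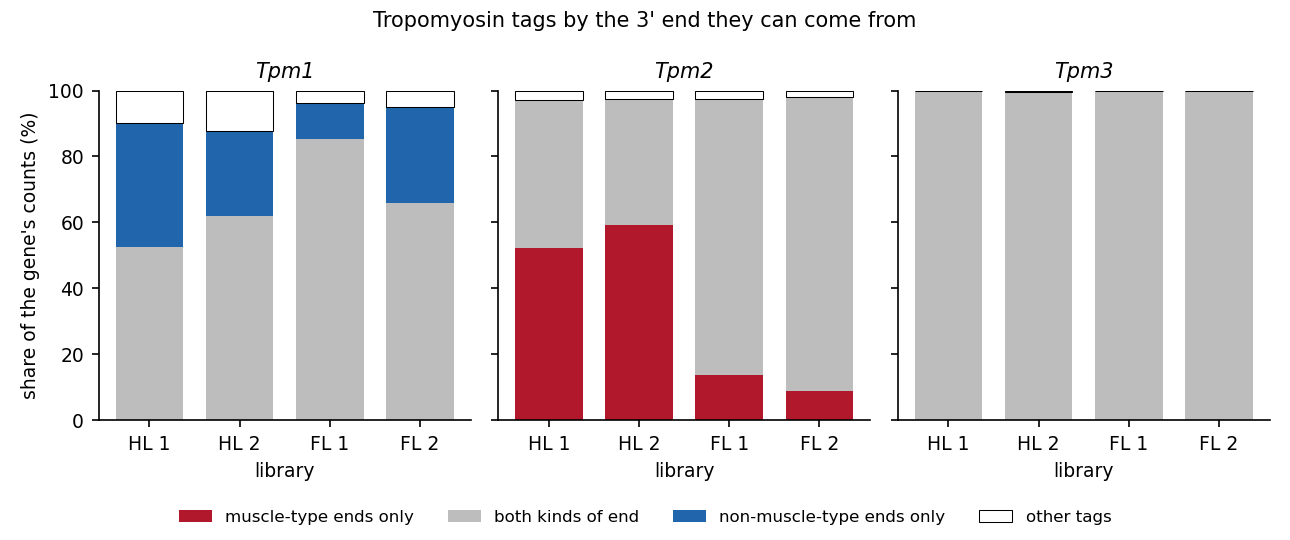
Share of the counts of Tpm1, Tpm2 and Tpm3 (percent) in tags found on muscle-type ends only, on both kinds of end, on non-muscle-type ends only, or on neither, in hindlimb (HL) replicates 1 and 2 and forelimb (FL) replicates 1 and 2. Tpm2 tags of muscle-type ends hold 52.2% and 59.1% in hindlimb, against 13.6% and 8.83% in forelimb.

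Most of the member counts came from the sense strand. Acta1 antisense tags held 22 and 30 counts in hindlimb, against 35 and 20 in forelimb, where sense tags held 2315 and 2133 counts in hindlimb, against 7696 and 2172 in forelimb. Tpm1 had the larger antisense part, with 71 and 57 counts in hindlimb, against 38 and 15 in forelimb, where sense tags held 663 and 412 counts in hindlimb, against 969 and 280 in forelimb.

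Most tested partners of the thin filament were not called. Of 24 listed genes, 18 passed the filter, 0 were called higher and 3 lower in hindlimb, and the median log2 fold change was -0.21, against -0.03 over all genes tested. The 3 were Tnnc2, fast skeletal troponin C, with 58.3 and 78.2 CPM in hindlimb, against 206.3 and 264.5 CPM in forelimb (log2 fold change -1.78, edgeR adjusted p = 0.00246), Tmod1, which caps the pointed end of the filament (-1.24), and Cfl2, the muscle cofilin that severs actin (-1.09). With the offset 0 were called, 17 of the 18 lay below 0 and the median was -0.56. Tnnc1, slow and cardiac troponin C, had 0 assigned counts, which does not tell an absent transcript from one with no tag assigned to it.

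Among the other actins and tropomyosin, Acta2, the smooth muscle alpha-actin, was called lower, with 36.5 and 29.5 CPM in hindlimb, against 75.4 and 101.3 CPM in forelimb (log2 fold change -1.41, edgeR adjusted p = 0.0117). With the offset its log2 fold change was 0.09. The other 4 genes, Actb, Actg1, Actg2 and Tpm4, were not called. The cytoplasmic beta-actin Actb was more abundant than either sarcomeric actin in all 4 libraries, with 3767 and 4783 CPM in hindlimb, against 4651 and 3386 CPM in forelimb. Its log2 fold change was 0.09 ± 0.32.

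The thick filament and Z disc list had 20 tested genes, 6 called lower and 0 higher in hindlimb, with a median of -0.71. The 4 with the smallest p were Ldb3, a Z disc scaffold (-2.09), Myh8, the perinatal myosin heavy chain (-1.84), Ttn, titin (-1.40), and Actn2, the Z disc alpha-actinin that anchors thin filaments (-1.19). With the offset all 20 lay below 0, with a median of -0.79, and 3 were called lower. These 3 were Ldb3 (-1.83), Mylpf (-1.29) and Myl1 (-1.25), of which Mylpf and Myl1 were not called without the offset. Over all genes, 51.1% lay below 0 with the offset and 0.102% were called lower. Of 6 tested myogenic regulators, 2 were called lower in hindlimb, Myf5 (-1.94) and Mef2c (-0.99). The other 4 were not called, and of the 6 only Myod1 lay above 0 (0.80). Myod1 had 25.8 and 43.9 CPM in hindlimb, against 19.6 and 20.4 CPM in forelimb. With the offset 0 of the 6 were called, and the list median was -0.35. Without the offset the counts of lists stand against 7.08% of all genes called lower, and no test of a list was made.

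**Figure D5:**
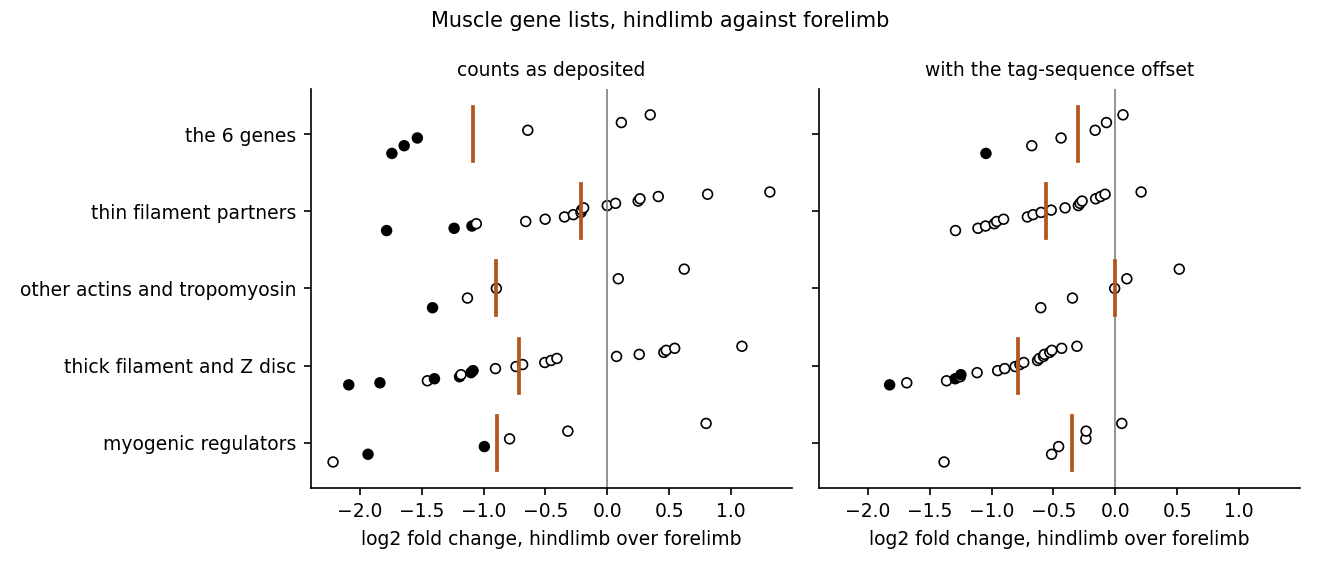
Log2 fold change, hindlimb over forelimb, of each tested gene of the 6 thin filament genes and of 4 muscle-related lists, for the counts as deposited (left) and with the offset (right). Filled points were called by edgeR and the orange bar is the list median. All 20 thick filament and Z disc genes lie below 0 on the right.

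The profiles of the members over the 4 libraries fell into 2 groups. Actc1 lay nearest to Acta1 (Euclidean distance of centred log2 CPM 0.30) and to Neb (0.39), Tpm2 and Tpm3 lay near each other (0.34), and Tpm1 stood between, at 0.91 from Actc1 and 0.92 from Tpm2. Among 6977 genes of at least 20 CPM on average, genes near Acta1 included Dsg1a (0.13) and Med7 (0.14), and the nearest to Actc1 were Sod1 (0.04), Ubl3 (0.06) and Efemp1 (0.09). None of these 5 is on the muscle gene lists. With 4 libraries, a likeness of this kind describes these libraries alone.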

How the data were processed

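The authors deposited 1 table of raw tag counts for 4 libraries, giving an Ensembl gene or UniGene cluster for part of the tags. The submitters' processing notes name Bowtie and mm9, and a version is not given in the sources. Tags with no gene or cluster, 14.8% to 18.7% of a library's counts, stayed out of library sizes and tests. Counts were summed per gene and tested in edgeR 4.0.16 (R 4.3.3): TMM, filterByExpr, glmQLFit and glmQLFTest, Benjamini-Hochberg adjustment at 0.05, limb type alone. Tags were tested by the same steps. Positions come from tags matched to GENCODE M21 transcripts (GRCm38); mm9 was not converted. The tag-sequence offset was a linear fit on tag bases within 9913 genes (42831 tags of at least 20 counts). It was fitted to each tag's log2 level relative to that tag's mean over the 4 libraries. The fit explained 29.3% to 36.7% of the within-gene variance of these relative levels. The offset was chosen in earlier work after these data were seen. Alternatives were DESeq2 1.42.0, other scalings and filters, other tag choices, each library left out, and a replicate block. Fits were tested on simulated counts.

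The members and lists were chosen with earlier results of these data known. Named were the 6 genes, called list genes (up to 4 by p), tags with at least 5% of a gene's counts or called, and the 3 nearest genes to each actin; 1 tag and 1 near gene that this rule names are not reported here. Actb, Tnnc1, Nppa, Col2a1, Myod1, Mylpf and Myl1 were named after their values were seen. The sorting of tags by G and C was also chosen after values were seen. The labels do not say that equal replicate numbers share animals, and deviations of equal numbers did not correlate (r = -0.11 over 13718 genes).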

Additional observations from a re-analysis of the deposited data

Results flagged for a closer look

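Some tags that the deposited table left without a gene match an NlaIII site of 1 of the 6 genes and of no other annotated gene, and their counts entered no comparison. Counting tags with more than 3 counts, Actc1 had 315 such counts, equal to 1.01% of its assigned counts, and Acta1 had 91 (0.631%). Tpm1 had 115 in 6 tags, equal to 4.59% of its assigned counts, with 48 and 47 in hindlimb, against 12 and 8 in forelimb. Tpm3 had 23 and Neb had 32 (2.95%). There are no control samples for these tags, and they stood above the 3 counts that a count of 0 allows.

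One of the Tpm1 tags is shown because it is found on muscle-type Tpm1 transcripts alone, a class with 0 assigned counts. It had 25 and 28 counts in hindlimb, against 10 and 2 in forelimb.
Tpm1 unassigned tag: CATGctacagaccagccaggg
A Tpm3 tag of muscle-type transcripts alone had 2 and 7 counts in hindlimb, against 5 and 2 in forelimb.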

How the results depend on the processing

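Acta1 was called lower in hindlimb under all 14 alternatives, from -1.89 to -1.35 on the log2 scale with 1 library left out. Actc1 (-1.71 to -1.35 with 1 library left out) and Neb (-1.96 to -1.55) were called in 13 of 14 alternatives and lost the call with the offset (-0.68 and -0.44). Tpm1 ranged from -0.91 to -0.37 with 1 library left out and was called without hindlimb replicate 1 (edgeR adjusted p = 0.0499). Tpm2 (0.01 to 0.21) and Tpm3 (0.32 to 0.37) kept their sign with 1 library left out. Tpm2 turned to -1.68 from its most abundant tag and to -0.072 with the offset. Tpm3 turned to -0.89 from its most abundant tag and to -1.58 ± 1.05 (SE, not called) from tags of 1 annotated gene. The most abundant of the latter Tpm3 tags held 24 counts, or 0.722% of the gene's counts. The more abundant Tpm3 tags all also match Tpm3-rs7. From tags at the last site of some annotated transcript, Tpm2 and Tpm3 reached 1.65 and 1.30. The causes were not tested. The count of members called was 5 from last-site tags, where 23.3% of all genes were called, and 1 with the offset, where 0.182% were. Genes called numbered 2285, from 950 to 3900 with 1 library left out and 25 with the offset.

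The actin share difference ran from -3.87 to 1.47 percentage points with 1 library left out, and was 2.74 from the most abundant tag or last site. Tpm2 muscle-end shares differed by 41.0 to 47.9 points with 1 library left out, and by 20.8 with the offset. From the last site of transcripts of known end they differed by 26.0, with only 9 to 169 counts per library. Part of those counts came from a tag common to both ends. Tpm1 and Tpm3, at 0, gave no difference. Member tags called numbered 7 with library totals, 5 with a count filter of 10, 0 with the offset and 7 to 19 with 1 library left out. Genes with differing tag usage numbered 0 with the offset and 0 to 6 with 1 library left out. Where 1 library was left, it was assumed to vary like the other limb type. The tag usage count with the offset follows in part from how the offset was made.

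With the replicate block, 2148 genes, 3 members, 2 member tags and 3 genes of differing tag usage were called; the numbers are not known to pair libraries. Crossed pairing, chosen after seeing the data, called 3170 genes (23.1%) and 3 members. The offset shares of actin and Tpm2 and the shared-site share of actin were also chosen after seeing the data. Forelimb replicate 2, the shallowest library, limits low tags.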
